A study of Mus musculus with 9 samples.

Results

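Transcripts of 7 genes that build the epithelial tight junction were followed in 9 primary pancreatic tumors of KPC mice, of which 5 were labelled Scrib null (KPF/+CSF/F) and 4 Scrib WT (KPF/+C). The genes were picked by symbol: the zonula occludens scaffolds Tjp1 and Tjp3, cingulin Cgn and its paralogue Cgnl1, the membrane proteins Ocln and Marveld2, and the adhesion molecule F11r. They are 7 of 54453 rows of the deposited count table, and all 7 passed the filter on low counts that left 16169 genes tested. These 7 and the other gene lists below were chosen with earlier results of these data known, so their counts beside all genes are descriptions. KPC tumors form in the pancreas of engineered mice after Cre recombinase acts on engineered alleles, and both groups carry the KPC alleles, while only the null group's label adds SF/F. Scrib encodes a scaffold of the basolateral polarity complex. PolyA RNA came from whole tumors that had been frozen, so stroma, vessels and leukocytes contributed to it. The sources used here give no age, sex or driver of Cre. Tumors carry numbers in the labels (null 7, 14, 15, 18 and 23, WT 2, 3, 6 and 9), but whether they came from different mice is not said, and the p-values cover the spread among these 9 samples only.

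Tight junctions seal the space between epithelial cells just below their apical surface. Claudins, occludin and the junctional adhesion molecules span the membrane, tricellulin (the product of Marveld2) seals the points where 3 cells meet, and the zonula occludens proteins ZO-1 (Tjp1) and ZO-3 (Tjp3) tie the membrane proteins to actin. Cingulin and paracingulin (Cgnl1) bind ZO-1 and the cytoskeleton. Normal pancreatic ducts carry such junctions, and ZO-1, paracingulin and JAM-A (F11r) are also made by endothelium.

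Library totals ranged from 19281212 to 27596832 estimated counts in the null tumors and from 10145830 to 26502285 in the WT tumors, with no detectable difference between the group means (two-sided exact permutation test, p = 0.222). Scrib itself had 102.2, 53.8, 55.5, 53.2 and 36.9 CPM (counts scaled by TMM library size) in null tumors 7, 14, 15, 18 and 23 and 88.5, 44.1, 62.0 and 87.4 CPM in WT tumors 2, 3, 6 and 9 (edgeR adjusted p = 0.712). The tumor labelled null 7 thus had the most Scrib mRNA of all, and the groups overlapped. The sources used here do not say which exons are deleted, so the mRNA does not check the labels, and directions below are between tumors as labelled. Tumor null 7 lay at one end of the first principal component and tumor WT 3 at one end of the second. The test of each gene was also run without these tumors. Epithelial markers (Epcam, Krt7, Krt8, Krt18, Krt19 and Cdh1), which check the labelled tissue, were detected in every tumor and summed to 6418 to 12420 CPM in null tumors and 7700 to 10630 CPM in WT tumors.

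The scaffolds Tjp1, Cgn and Cgnl1 averaged more RNA in Scrib null tumors, by 1.87-, 1.53- and 1.99-fold. Marveld2 and Ocln had fold changes of 1.46 and 1.31, while Tjp3 and F11r had 0.795 and 0.719. None of the 7 genes passed edgeR's quasi-likelihood test after Benjamini-Hochberg adjustment over all genes tested (adjusted p from 0.236 to 0.529), where 0.0124% of genes did (2 of 16169). At an unadjusted edgeR p under 0.05, 3 of 7 were higher in null tumors, against 7.64% of all genes tested (1236), and 0 of 7 were lower, against 10.0% (1623). Over all genes those counts were 960 higher and 2038 lower with upper quartile scaling, and 1689 higher and 1241 lower with the exon length offsets described below. The count of 3 was 2 without WT 3, WT 9, null 7, null 14 or null 23, 1 without null 18, and 2 without both WT 3 and null 7. It was 4 without null 15, with no filter, in limma-voom, with the epithelial covariate and with exon length offsets. Without WT 6 it was 3, with Marveld2 and Ocln beside Cgn in place of Tjp1 and Cgnl1. The number of all genes higher in null tumors moved as well. It was 917 of 15863 without null 18, 1206 of 15798 without null 15 and 791 of 16404 without WT 6. There were 984 of 16675 without WT 3, 1321 of 16567 without WT 9 and 1085 of 16171 without null 7. The number was 1024 of 16189 without null 14, 963 of 15796 without null 23, and 792 of 16679 without both WT 3 and null 7. With no filter it was 1719 of 30590, and of 16169 genes 1409 in limma-voom and 1242 with the epithelial covariate. Without WT 2 F11r was lower in null tumors (edgeR unadjusted p = 0.0349), as were 1955 of 16665 genes at an unadjusted p under 0.05. Without null 7 the log2 fold changes, null over WT, were 0.96 for Tjp1, 0.67 for Cgn, 0.88 for Cgnl1, 0.51 for Marveld2, 0.37 for Ocln, -0.28 for Tjp3 and -0.35 for F11r. DESeq2 called 3.91% of all genes at an adjusted p under 0.05 and none of the 7. At an unadjusted DESeq2 p under 0.05, 4 of 7 were higher in null tumors, as were 1576 of 16169 genes. The median log2 fold change was 0.54 over the 7 genes and -0.04 over all genes tested.

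**Figure D1:**
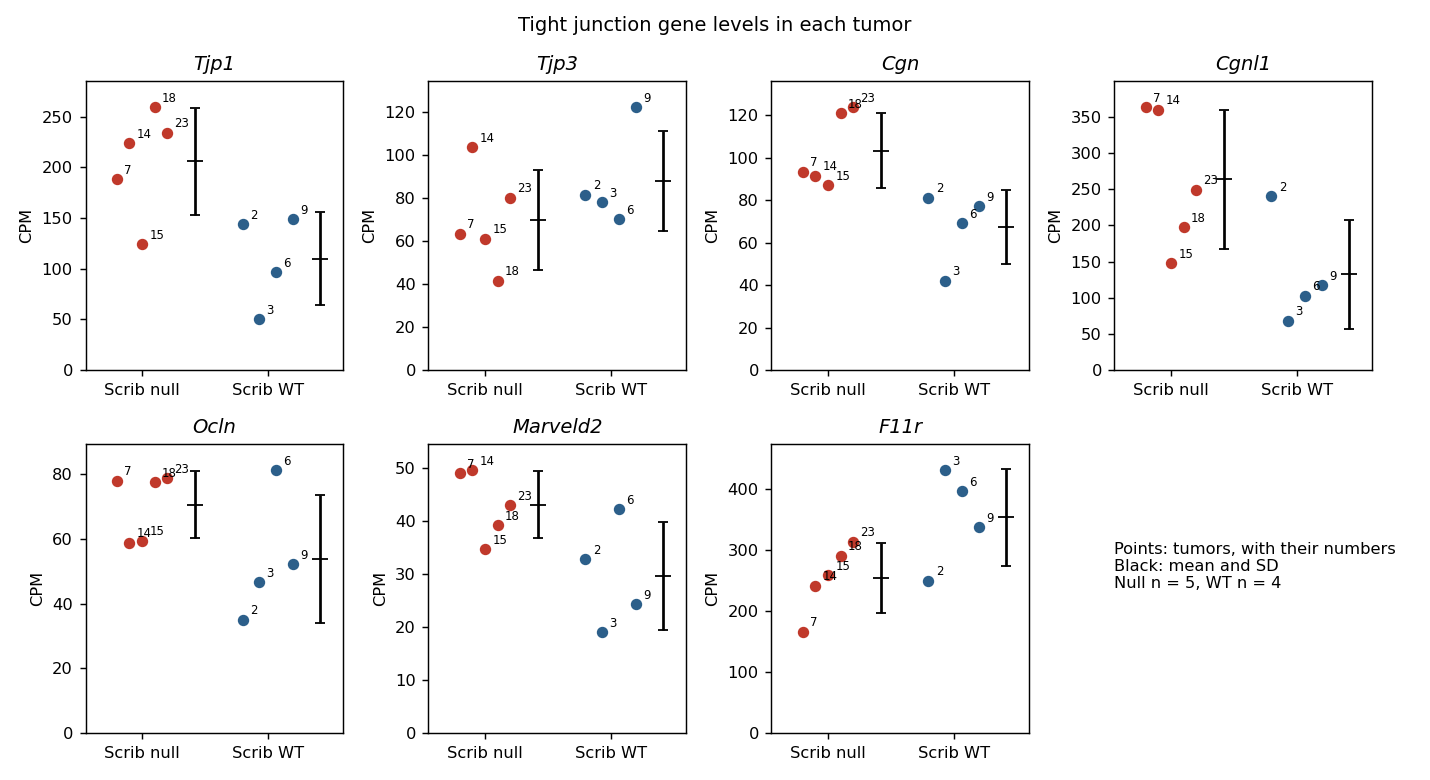
CPM of each gene in each tumor, with Scrib null tumors on the left and Scrib WT tumors on the right of each panel; points are tumors with their numbers and black bars the mean and SD (n = 5 and 4). Cgn is the gene whose groups do not overlap, with all 5 null tumors at 87.0 CPM or more and the WT tumors at 81.3 CPM or less.

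Promoter windows were read from RefSeq (GRCm38.p6), from 250 bases before to 50 bases after each gene's start, for all 7 genes. Tjp3, Ocln and Marveld2 have 2 annotated starts and so 2 windows each, and the RefSeq start of Tjp1 lies inside the gene span of the GENCODE annotation, next to the start of another annotated transcript. The RefSeq starts of Cgn and F11r and the second of Marveld2 are also not transcript starts in GENCODE. A set of 5 is shown: those of the 3 genes with an unadjusted edgeR p under 0.05 (Tjp1, Cgn and Cgnl1), the first of Ocln, and that of F11r, whose estimate had the other sign. Capitals mark CAGGTG, the E-box bound by the epithelial repressors of the SNAI and ZEB families, and AACCGGTT or AACCTGTT, forms of the motif of the epithelial activators of the GRHL family, each searched on both strands. Windows run 5′ to 3′ along the gene's own strand.
Tjp1 (chr7:65371195-65371494, minus strand): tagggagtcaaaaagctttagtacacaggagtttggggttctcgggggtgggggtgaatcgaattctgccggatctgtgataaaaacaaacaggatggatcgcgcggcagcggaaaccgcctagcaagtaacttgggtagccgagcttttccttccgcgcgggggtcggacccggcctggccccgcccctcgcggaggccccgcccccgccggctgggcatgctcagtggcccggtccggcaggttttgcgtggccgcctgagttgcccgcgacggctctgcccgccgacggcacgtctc
Cgn (chr3:94786433-94786732, minus strand): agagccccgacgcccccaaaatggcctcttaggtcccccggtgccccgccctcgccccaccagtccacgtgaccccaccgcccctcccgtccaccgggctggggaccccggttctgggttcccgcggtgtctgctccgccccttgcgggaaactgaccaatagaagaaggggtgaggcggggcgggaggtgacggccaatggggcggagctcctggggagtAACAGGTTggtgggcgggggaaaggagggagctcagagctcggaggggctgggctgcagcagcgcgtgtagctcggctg
Cgnl1 (chr9:71771553-71771852, minus strand): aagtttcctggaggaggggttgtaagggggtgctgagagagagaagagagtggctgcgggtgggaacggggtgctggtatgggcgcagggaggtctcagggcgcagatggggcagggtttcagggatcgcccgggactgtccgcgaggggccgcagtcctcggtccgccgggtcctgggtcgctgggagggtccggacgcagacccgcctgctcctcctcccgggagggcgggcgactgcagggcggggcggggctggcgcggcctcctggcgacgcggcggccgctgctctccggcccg
Ocln (chr13:100552669-100552968, minus strand): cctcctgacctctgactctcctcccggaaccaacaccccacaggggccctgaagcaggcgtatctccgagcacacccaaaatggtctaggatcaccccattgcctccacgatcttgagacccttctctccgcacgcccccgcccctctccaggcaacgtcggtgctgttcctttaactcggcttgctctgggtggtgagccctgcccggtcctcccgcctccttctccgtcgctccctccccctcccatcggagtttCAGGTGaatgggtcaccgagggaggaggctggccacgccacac
F11r (chr1:171437311-171437610, plus strand): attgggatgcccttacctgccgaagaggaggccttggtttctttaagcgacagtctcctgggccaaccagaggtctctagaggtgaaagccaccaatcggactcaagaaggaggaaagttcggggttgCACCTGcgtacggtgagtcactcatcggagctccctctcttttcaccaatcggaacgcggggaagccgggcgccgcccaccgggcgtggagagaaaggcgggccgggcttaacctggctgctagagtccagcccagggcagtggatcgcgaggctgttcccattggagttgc

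No E-box of this form lay in the windows of Tjp1, Cgn or Cgnl1. At least 1 lay in a window of 4 of 7 genes, Tjp3, Ocln, Marveld2 and F11r, against 21.5% of genes tested. Of these, Tjp3, Ocln and Marveld2 had 2 windows searched, while Tjp1, Cgn and Cgnl1 had 1 each. The 4 genes held 6 such sites between them. Of these 6 sites 2, one in Ocln and one in Marveld2, spanned the annotated end of an exon. That Ocln site lies in its second window, which is not shown. A GRHL motif lay in 1 of the 7 genes, Cgn, starting 29 bases before its RefSeq start, and in 1.12% of genes tested. The GC box GGGCGG, bound by SP factors and not shown in capitals, lay in windows of 6 genes and in 65.5% of genes tested, and none of its matches overlapped a match of the other motifs. Tjp3 was the gene with no GC box, and its windows had a GC content of 45.3% and 57.3%, against 65.3% for Tjp1. These matches are letters in a window, not measured binding sites.

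Tjp1 (ENSMUSG00000030516, chromosome 7, 65296165 to 65527781, GRCm38, minus strand) encodes ZO-1, the scaffold that holds claudins, occludin and JAM-A together at the plaque. It had 188.3, 223.5, 124.0, 259.1 and 233.9 CPM in null tumors 7, 14, 15, 18 and 23, against 144.0, 50.4, 96.9 and 148.7 CPM in WT tumors 2, 3, 6 and 9. All null tumors but null 15 lay above every WT tumor, and WT 3 was the lowest. The means were 205.7 ± 52.3 CPM in null and 110.0 ± 46.1 CPM in WT tumors (SD, n = 5 and 4), a log2 fold change of 0.90 (SE 0.34, edgeR adjusted p = 0.236, unadjusted p = 0.0224). Its 95% confidence interval ran from 1.11- to 3.14-fold. Without WT 3 and null 7 the log2 fold change was 0.73. The annotation places Gm44792, Gm44794 and Gm44795 within the same locus, so reads could be shared with them.

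Tjp3 (chromosome 10, 81273207 to 81291581, minus strand) encodes ZO-3, a relative of ZO-1 restricted to epithelia. Its values were 63.4, 103.5, 61.0, 41.7 and 80.2 CPM in null tumors 7, 14, 15, 18 and 23 and 81.6, 77.9, 70.2 and 122.1 CPM in WT tumors 2, 3, 6 and 9. The groups overlapped, with 3 null tumors below every WT tumor and the highest value in WT 9. Means of 69.9 ± 23.2 CPM in null and 87.9 ± 23.3 CPM in WT tumors gave a log2 fold change of -0.33 (SE 0.28, edgeR adjusted p = 0.529), with an interval from 0.521- to 1.21-fold. It was -0.13 without WT 9, -0.19 without null 18 and -0.51 without null 14. Apba3 overlaps the gene on the opposite strand, and no source used here says whether reads were counted by strand.

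Cgn (chromosome 3, 94760069 to 94786492, minus strand), cingulin, had 93.4, 91.7, 87.0, 121.0 and 123.8 CPM in null tumors 7, 14, 15, 18 and 23, against 81.3, 42.1, 69.2 and 77.2 CPM in WT tumors 2, 3, 6 and 9. Every null tumor was above every WT tumor, which was so for 3.42% of all genes tested, while 3.49% had every null tumor below every WT tumor, as 0 of the 7 did. WT 3 was again the lowest tumor. The means were 103.4 ± 17.6 CPM in null and 67.5 ± 17.6 CPM in WT tumors (SD, n = 5 and 4). The log2 fold change was 0.62 (SE 0.23, edgeR adjusted p = 0.237, unadjusted p = 0.0231), with a 95% confidence interval from 1.07- to 2.19-fold. Without WT 3 it was 0.48.

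Cgnl1 (chromosome 9, 71626509 to 71771602, minus strand), paracingulin, had the widest range of the 7 genes, 5.32-fold between the extreme tumors. Its values were 362.9, 359.6, 147.4, 197.5 and 249.1 CPM in null tumors 7, 14, 15, 18 and 23 and 240.2, 68.2, 103.1 and 117.0 CPM in WT tumors 2, 3, 6 and 9. Null 7 and null 14 stood above the other null tumors, and WT 2 reached into the null range. Means of 263.3 ± 96.4 CPM in null and 132.2 ± 74.9 CPM in WT tumors gave a log2 fold change of 0.99 (SE 0.40, edgeR adjusted p = 0.249, unadjusted p = 0.0307). It was 1.46 without WT 2, and 0.68 without WT 3 and null 7 (edgeR unadjusted p = 0.118).

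Ocln (chromosome 13, 100496507 to 100552718, minus strand) encodes occludin, a membrane protein with a MARVEL domain that binds ZO-1 through its tail. It had 78.0, 58.9, 59.5, 77.6 and 78.8 CPM in null tumors 7, 14, 15, 18 and 23, against 35.0, 46.6, 81.3 and 52.1 CPM in WT tumors 2, 3, 6 and 9. The null tumors kept within a narrow band, and WT 6 was above them all. With means of 70.6 ± 10.4 CPM in null and 53.8 ± 19.7 CPM in WT tumors, the log2 fold change was 0.39 (SE 0.25, edgeR adjusted p = 0.413), with 0.66 without WT 6 and 0.24 without WT 2.

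Marveld2 (chromosome 13, 100595957 to 100616971, minus strand), on the same strand as Ocln and close to it, encodes tricellulin. Its level was 48.9, 49.5, 34.7, 39.1 and 42.9 CPM in null tumors 7, 14, 15, 18 and 23 and 32.8, 19.0, 42.1 and 24.3 CPM in WT tumors 2, 3, 6 and 9. WT 6 was the WT tumor that lay in the null range, whereas its Ocln level was above every null tumor. Means of 43.0 ± 6.37 CPM in null and 29.5 ± 10.1 CPM in WT tumors gave a log2 fold change of 0.54 (SE 0.25, edgeR adjusted p = 0.290, unadjusted p = 0.0552).

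F11r (chromosome 1, 171437535 to 171464603, plus strand) encodes JAM-A, an immunoglobulin-like adhesion molecule of epithelium, endothelium, platelets and leukocytes. It had 166.1, 242.0, 258.6, 291.1 and 313.8 CPM in null tumors 7, 14, 15, 18 and 23, against 250.0, 431.6, 396.4 and 337.6 CPM in WT tumors 2, 3, 6 and 9. Null 7 was the lowest tumor and WT 3 the highest, and WT 2 fell among the null tumors. The means, 254.3 ± 56.6 CPM in null and 353.9 ± 79.4 CPM in WT tumors, gave a log2 fold change of -0.48 (SE 0.25, edgeR adjusted p = 0.331), with an interval from 0.491- to 1.05-fold. Without null 7 and WT 3 it was -0.21.

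**Figure D2:**
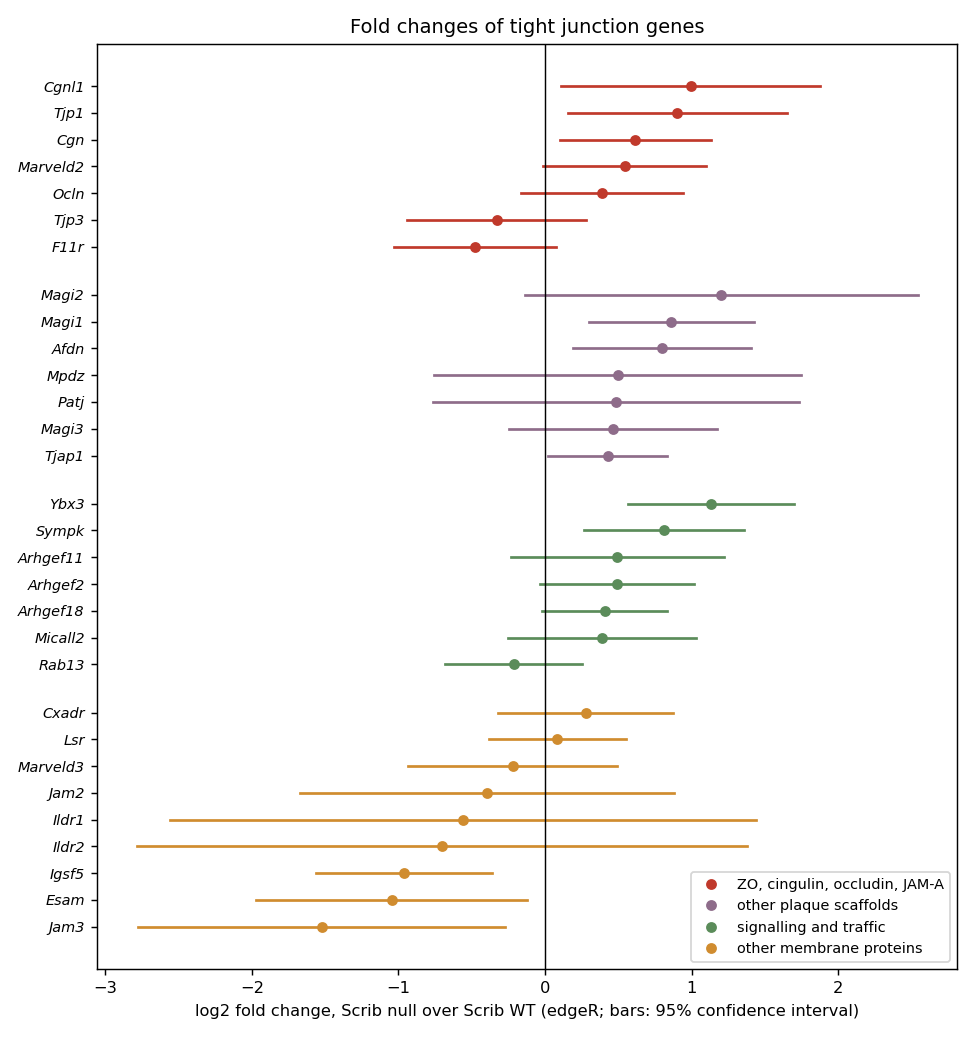
Log2 fold change of each gene, Scrib null over Scrib WT, from the edgeR fit to all 9 tumors, with its 95% confidence interval; colors mark the 7 genes followed here and 3 further groups of tight junction genes. Intervals of Tjp1, Cgn and Cgnl1 lie above 0, those of Ocln, Marveld2, Tjp3 and F11r include it, and the other plaque scaffolds drawn all have estimates above 0.

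Per kilobase of annotated exon, F11r was the most abundant of the 7 in every tumor, at 95.5 ± 21.3 CPM per kb in null and 132.9 ± 29.8 CPM per kb in WT tumors. Marveld2 was the lowest on average, at 12.7 ± 1.88 and 8.73 ± 3.00 CPM per kb in null and WT tumors. Between these ends the order by CPM per kb in null tumors was Cgnl1 (33.6 ± 12.3), Tjp1 (26.3 ± 6.70), Tjp3 (18.8 ± 6.24), Cgn (17.2 ± 2.91) and Ocln (16.7 ± 2.46). In WT tumors it was Tjp3 (23.7 ± 6.26), Cgnl1 (16.8 ± 9.55), Tjp1 (14.1 ± 5.90), Ocln (12.7 ± 4.67) and Cgn (11.2 ± 2.93). Below F11r, neighbours in either order had means whose SD ranges overlapped. Tjp3 thus exceeded Tjp1 per kb in 1 of 5 null tumors and in 4 of 4 WT tumors.

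Of the 3 ratios between related genes that were looked at, that of the ZO paralogues did not overlap between groups. How often other pairs of genes separate in this way was not tested. Tjp1 has 7.81 kb of exon and Tjp3 3.71 kb, and fold change followed exon length over all genes, as described below. The part of length in the ratio was not tested. The CPM ratio of Tjp1 to Tjp3 was 2.97, 2.16, 2.03, 6.22 and 2.92 in null tumors 7, 14, 15, 18 and 23, against 1.77, 0.647, 1.38 and 1.22 in WT tumors 2, 3, 6 and 9. Null 18, which had the most Tjp1 and the least Tjp3, was far above the rest. On the log2 scale the mean ratio differed by 1.34 between null and WT tumors, a description of genes whose fold changes are given above and not a test. Cgn to Cgnl1 overlapped between groups, with ratios from 0.255 to 0.612 in null tumors and from 0.338 to 0.671 in WT tumors. So did Ocln to Marveld2, with ratios from 1.19 to 1.98 in null and from 1.07 to 2.46 in WT tumors.

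**Figure D3:**
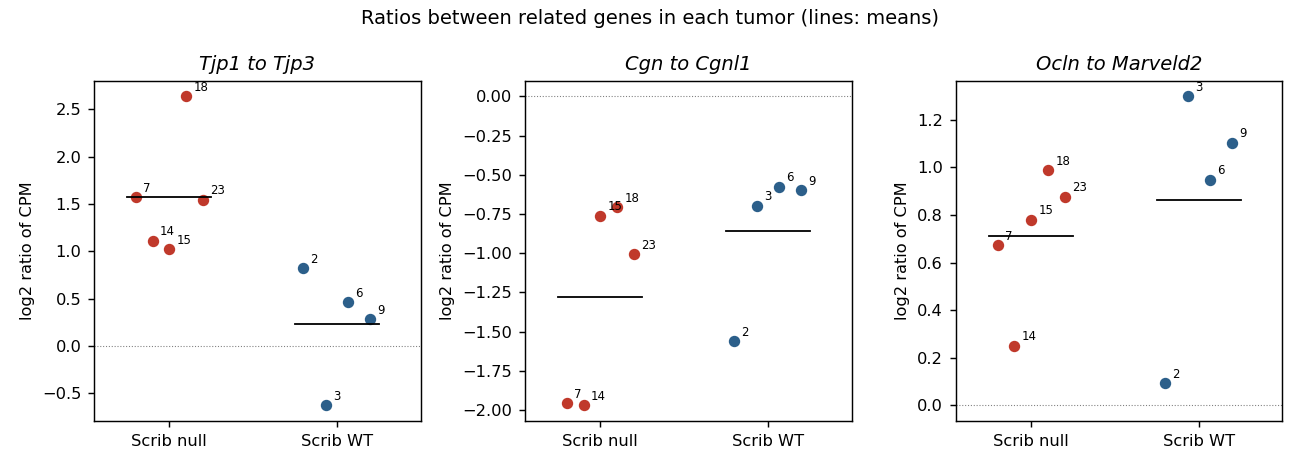
Log2 ratio of the CPM values of related genes in each tumor, Scrib null left and Scrib WT right of each panel, with lines at group means. The Tjp1 to Tjp3 ratio of every null tumor (1.02 or more on this log2 scale) lies above that of every WT tumor (0.82 or less), while the other 2 pairs overlap.

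Tumors differed in how many of the 7 genes they held above the 9-tumor mean (log2 CPM). In null 7, 14, 15, 18 and 23 the number was 5, 5, 1, 6 and 7, and in WT 2, 3, 6 and 9 it was 2, 2, 3 and 3. Null 15 held 1 gene, Cgn, above its mean, and its Tjp1 lay 0.25 below. WT 3 combined the lowest Tjp1, Cgn, Cgnl1 and Marveld2 with the highest F11r, the first of these 1.55 below and the last 0.58 above its mean on the log2 scale. Null 7 had the lowest F11r, 0.80 below its mean, beside the highest Cgnl1.

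**Figure D4:**
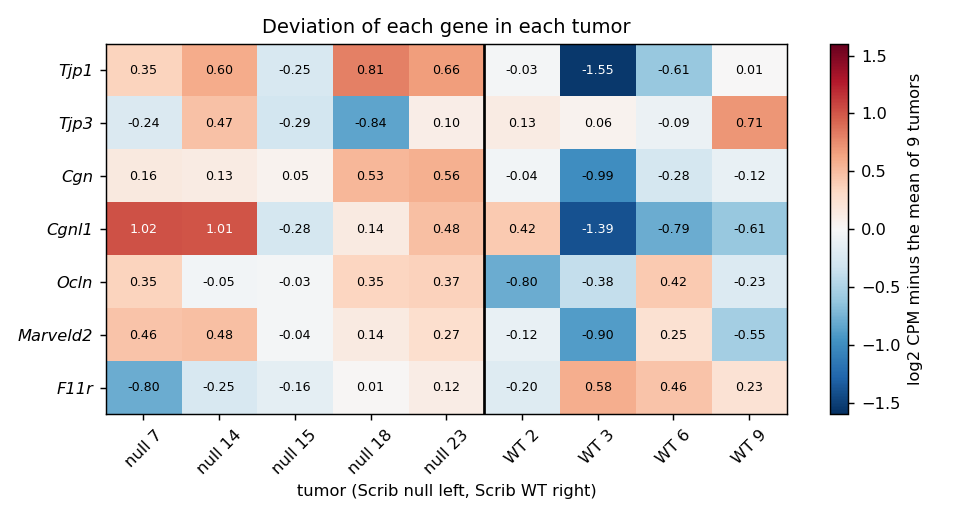
Log2 CPM of each gene in each tumor minus that gene's mean over the 9 tumors, with Scrib null tumors left of the black line and Scrib WT tumors right of it. WT 3 holds the lowest values of Tjp1 (-1.55) and Cgnl1 (-1.39), and null 7 and null 14 the highest of Cgnl1 (1.02 and 1.01).

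Over all genes tested, fold change followed annotated exon length, which was looked at after the values of the 7 genes had been seen. The median log2 fold change, null over WT, was -0.38 for 3195 genes under 2 kb, -0.15 for 4868 genes of 2 to 4 kb, 0.04 for 3587 genes of 4 to 6 kb and 0.20 for 4501 genes over 6 kb. The 3 genes with an unadjusted p under 0.05 were the longest of the 7, Cgn at 6.02 kb, Tjp1 at 7.81 kb and Cgnl1 at 7.84 kb, and F11r at 2.66 kb was the shortest. Among genes over 6 kb, 13.1% had an unadjusted edgeR p under 0.05 and a higher level in null tumors. WT 3 had the steepest trend, with a median deviation of 0.65 for genes under 2 kb and -0.62 for those over 6 kb. WT 6 had the same direction (0.318 and -0.225). WT 2 (-0.142 and 0.176) and WT 9 (-0.073 and 0.108) went the other way, as did the null tumors except null 15 (0.006 and -0.011). The trend thus did not divide the tumors by label. With per-tumor offsets that follow exon length, also chosen after seeing the data, the log2 fold changes were 0.87 for Tjp1, 0.60 for Cgn, 1.0 for Cgnl1, 0.71 for Marveld2, 0.45 for Ocln, -0.19 for Tjp3 and -0.27 for F11r (edgeR adjusted p from 0.173 to 0.725). Those of Tjp3 and F11r thus moved by over 1.5 times.

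**Figure D5:**
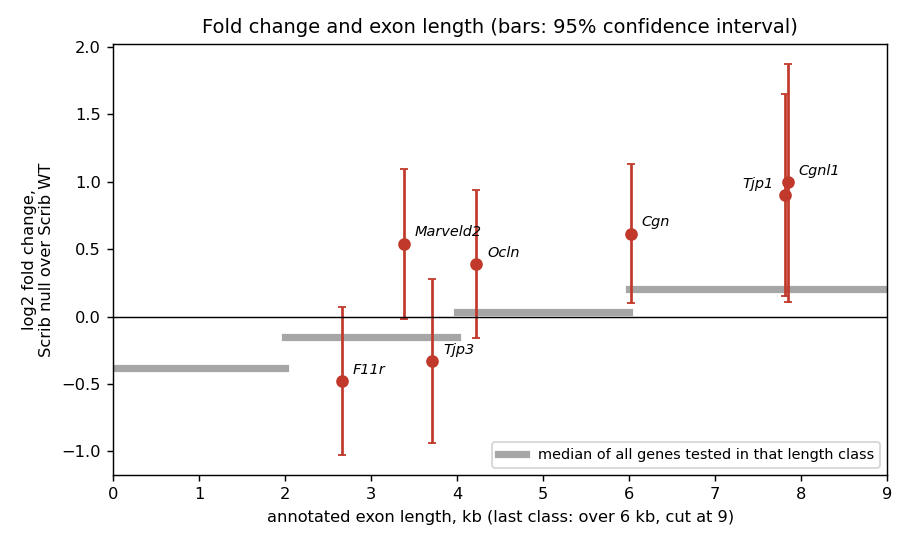
Log2 fold change, Scrib null over Scrib WT, of the 7 genes (red points, bars for the 95% confidence interval) against annotated exon length in kb, with gray lines for the median of all genes tested in each length class. The gray medians go from -0.38 under 2 kb to 0.20 over 6 kb, and Tjp1, Cgn and Cgnl1 lie above the median of their class.

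Stromal and immune markers had lower means in null tumors. Of 6 macrophage markers 6 had the lower mean in null tumors, summing to 302 to 676 CPM in null and 562 to 1368 CPM in WT tumors, and so did 6 of 6 fibroblast markers (261 to 2627 CPM in null, 1052 to 6280 CPM in WT tumors). Endothelial markers, of a cell type that makes ZO-1, paracingulin and JAM-A, summed to 33.2 to 204.2 CPM in null and 165.5 to 379.3 CPM in WT tumors, again with 6 of 6 means lower in null tumors. The 5 neutrophil markers, all with the lower mean in null tumors, summed to 63.9 to 564 CPM in null and 158 to 2625 CPM in WT tumors, with the highest sum in WT 3. The 6 lymphocyte markers, again all with lower means in null tumors, summed to 1.21 to 7.67 CPM in null and 6.11 to 12.5 CPM in WT tumors, with Cd3d and Ms4a1 at 0 in some tumors. Of 6 acinar markers 3 had the higher mean in null tumors, with sums from 7.10 to 221.3 CPM in null and from 18.4 to 223.0 CPM in WT tumors, with Cpa1, Cpb1, Ctrb1 and Pnlip at 0 in some. In whole tumors fewer cells of a type and less RNA per cell cannot be told apart, and the part of these cells in the results on junction genes was not tested.

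Set against the summed epithelial markers, Tjp1 came to 2.14 ± 0.685% of their CPM in null and 1.18 ± 0.491% in WT tumors. Cgnl1 came to 2.86 ± 1.67% in null and 1.38 ± 0.668% in WT tumors, and Cgn to 1.08 ± 0.307% in null and 0.724 ± 0.226% in WT tumors, where 3 of 5 null tumors remained above every WT tumor. F11r stood at 2.57 ± 0.477% in null and 3.81 ± 1.15% in WT tumors. With the mean level of the epithelial markers as a covariate in the edgeR fit, log2 fold changes were 0.89 for Tjp1, 0.62 for Cgn, 1.0 for Cgnl1 and -0.54 for F11r (adjusted p from 0.205 to 0.255).

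The other plaque scaffolds tested had estimates on the same side as Tjp1, unlike Tjp3 (log2 fold change -0.33). Of 8 other plaque scaffolds tested, 8 had a log2 fold change above 0, against 47.8% of all genes, with a median of 0.65. At an unadjusted edgeR p under 0.05 there were 4 of 8, all higher in null tumors, against 7.64% of all genes, and after adjustment over all genes 0 of 8 (DESeq2 called 1 of 8 at an adjusted p under 0.05, against 3.91% of all genes). Magi1, a membrane-associated guanylate kinase with inverted domains, averaged 115.2 ± 34.3 CPM in null and 63.5 ± 12.5 CPM in WT tumors with no overlap (edgeR adjusted p = 0.208). Every null tumor lay above every WT tumor for 2 of these 8 scaffolds, against 3.42% of all genes tested. Afdn, afadin, which links nectins to actin and binds ZO-1, averaged 151.9 ± 31.8 CPM in null and 87.3 ± 30.2 CPM in WT tumors (edgeR adjusted p = 0.224). With exon length offsets 8 of 8 were still above 0, with a median of 0.55, against 0.05 over all genes tested.

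Proteins that the plaque holds for signalling and traffic had 6 of 7 estimates above 0, against 47.8% of all genes, and a median of 0.49. At an unadjusted edgeR p under 0.05 there were 2 of 7, both higher in null tumors, against 7.64% of all genes, and 0 of 7 after adjustment (DESeq2 called 2 of 7, against 3.91%). Without WT 2 the 2 became 5 of 7, where 1786 of 16665 genes were higher. With any other single tumor left out it stayed at 2 of 7. Ybx3, which encodes ZONAB, a Y-box factor that binds ZO-1, averaged 604.5 ± 180.9 CPM in null and 276.3 ± 22.0 CPM in WT tumors. Its log2 fold change was 1.13 (SE 0.26, edgeR adjusted p = 0.197), its groups did not overlap, and DESeq2 gave an adjusted p of 0.00225. Every null tumor lay above every WT tumor for 1 of these 7 signalling and traffic genes, against 3.42% of all genes tested. Sympk, symplekin, found both at junctions and in the machinery that processes mRNA ends, averaged 189.1 ± 35.0 CPM in null and 107.7 ± 29.6 CPM in WT tumors (edgeR adjusted p = 0.211). Arhgef18, a guanine nucleotide exchange factor, averaged 84.6 ± 8.17 CPM in null and 63.8 ± 14.5 CPM in WT tumors (edgeR adjusted p = 0.298). With exon length offsets 7 of these 7 genes were above 0, with a median of 0.48, against 0.05 over all genes tested. In that fit 2 of 7 were higher in null tumors at an unadjusted p under 0.05, as were 1689 of 16169 genes.

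Other membrane proteins of the junction mostly had the lower mean in null tumors, as F11r did. Of 9 tested, 7 had a log2 fold change below 0 and 2 above, against 47.8% of all genes above, with a median of -0.56 (-0.23 without null 7). At an unadjusted edgeR p under 0.05 there were 3 of 9, all lower in null tumors, against 10.0% of all genes, and 0 of 9 after adjustment (DESeq2 called 1 of 9, against 3.91%). Igsf5, which encodes JAM4, averaged 19.4 ± 4.19 CPM in null and 37.7 ± 13.3 CPM in WT tumors with no overlap (log2 fold change -0.96, edgeR adjusted p = 0.207). Its log2 fold change was -0.54 without WT 3 and null 7. Jam3, JAM-C, averaged 3.16 ± 1.69 CPM in null and 9.11 ± 0.832 CPM in WT tumors, again with no overlap (edgeR adjusted p = 0.234). It was a low-level transcript, at 0.303 CPM in the lowest null tumor. Every null tumor lay below every WT tumor for 2 of these 9 membrane genes, against 3.49% of all genes tested. Esam, an endothelial adhesion molecule, averaged 21.6 ± 9.87 CPM in null and 44.6 ± 14.3 CPM in WT tumors (edgeR adjusted p = 0.249), beside the endothelial marker sums given above. Its unadjusted p was over 0.05 without WT 3, WT 9 or null 18. With exon length offsets 7 of the 9 membrane genes were still below 0, with a median of -0.50, against 0.05 over all genes tested. In that fit 3 of 9 were lower in null tumors at an unadjusted p under 0.05, as were 1241 of 16169 genes.

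Claudins, the strand-forming proteins, were split evenly, with 6 of 12 above 0, near the 47.8% of all genes, 6 below 0 and a median of 0.07. Of them 2 had an unadjusted edgeR p under 0.05, both higher in null tumors, against 7.64% of all genes, and 0 did without null 18. After adjustment 0 passed in either edgeR or DESeq2. Cldn3, a sealing claudin, averaged 294.9 ± 66.4 CPM in null and 190.2 ± 48.7 CPM in WT tumors, and Cldn1 averaged 11.2 ± 8.35 CPM in null and 3.85 ± 3.20 CPM in WT tumors. The log2 fold change of Cldn1 was 1.55, and 0.98 without null 14 (edgeR unadjusted p = 0.146). Leaving out any 1 of several tumors took the unadjusted p of Cldn1 or Cldn3 over 0.05, and the log2 fold change of Cldn3, 0.63, was 0.99 with exon length offsets. Cldn6, best known from embryonic epithelia, averaged 513.1 ± 133.8 CPM in null and 179.0 ± 150.0 CPM in WT tumors (edgeR adjusted p = 0.293), and its groups did not overlap. Every null tumor lay above every WT tumor for 1 of the 12 claudins, against 3.42% of all genes tested. With exon length offsets 8 of 12 claudins were above 0 and 4 had an unadjusted p under 0.05 and a higher level in null tumors, as did 1689 of 16169 genes. The median of the claudins was then 0.37, against 0.05 over all genes tested.

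Transcription factors that activate or repress junction genes had 6 of 12 estimates above 0 and 1 of 12 higher in null tumors at an unadjusted edgeR p under 0.05, near the 47.8% and 7.64% of all genes, and 0 of 12 passed after adjustment in edgeR or DESeq2. The 1 was Grhl2, an activator of epithelial junction genes, at 56.6 ± 7.77 CPM in null and 29.6 ± 14.8 CPM in WT tumors (log2 fold change 0.93, SE 0.31, edgeR adjusted p = 0.222). Among the repressors, Snai2 averaged 1.19 ± 0.880 CPM in null and 2.41 ± 0.633 CPM in WT tumors (edgeR adjusted p = 0.377), and Zeb1 averaged 9.08 ± 2.66 CPM in null and 15.9 ± 11.1 CPM in WT tumors (edgeR adjusted p = 0.402), beside the fibroblast marker sums given above. The log2 fold change of Zeb1 was -0.80, and -0.34 without WT 2.

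Likeness of pattern was measured as the root mean square difference between 2 genes' log2 CPM over the 9 tumors, each centred on its own mean. By it Tjp1 was nearest to Cgn among the 7 genes (0.31, with 1.87% of genes tested as near or nearer to Tjp1), and Cgnl1 was nearest to Tjp1 (0.44, 3.14%). Ocln and Marveld2 were each other's near neighbours at 0.37, though Cgn was closer to Marveld2 (0.32). Tjp3 and F11r were nearest to each other among the 7, at 0.53, but 18.4% of genes were as near to Tjp3, and a larger share to F11r. Among all genes the 3 nearest patterns were Cep290, Prrc2c and Bcl9 for Tjp1 (0.15 to 0.17, against a median of 0.90 over all genes). They were Phf12, Tut7 and Vezf1 for Cgn, Sf3a2, Prr12 and Hnrnpul2 for Cgnl1, and Cebpd, Fuca2 and Dnajc12 for Tjp3. For Ocln they were Tdp2, Mbd4 and Mpp6, for Marveld2 Kif2a, Ktn1 and Fam8a1, and for F11r Ikbip, Chmp2b and Nipsnap3b. The spread between tumors of a group, as edgeR's biological coefficient of variation, was lowest for Cgn (0.279) and highest for Cgnl1 (0.425), against a median of 0.405 over genes tested.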

How the data were processed

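Estimated counts per Ensembl gene were deposited for 9 tumors, not normalized. The submitters' processing notes name Salmon 1.4.0, DESeq 2 and the builds GRCm38 and mm10; the annotation release and strand setting are not given in the sources used here. Symbols, coordinates and exon lengths came from GENCODE M21 (GRCm38), which matched 54131 of 54453 rows. Counts were rounded to whole numbers, grouped by the genotype in the labels and filtered with filterByExpr (minimum count 10, minimum total 15). Groups were compared in edgeR 4.0.16 by its quasi-likelihood test with TMM scaling, no covariate and Benjamini-Hochberg adjustment over 16169 genes at 0.05, in R 4.3.3. The SE was taken as the log2 fold change divided by the root of its F statistic. Log2 CPM used a prior count of 2, and CPM per kb used the union of annotated exons.

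The 7 genes and all lists were chosen with earlier results of these data known. Genes named besides the 7 are the 3 with the smallest p in each list of junction genes and regulators, and the 3 nearest patterns for each of the 7; a gene that this rule picks is not reported here. Igsf5 has 2 Ensembl rows, of which the more abundant was used.

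Alternatives were RLE and upper quartile scaling, no filter, CPM of at least 1 in 4 tumors, DESeq2 1.42.0, limma-voom (limma 3.58.1), an epithelial covariate and each tumor left out. Added after seeing the data were leaving out WT 3 and null 7, and offsets per tumor from a spline of 5 degrees of freedom on log2 exon length. All pairs within a group differed by more than sampling noise (smallest chi-square over degrees of freedom 78.6). The common biological coefficient of variation was 0.494, so the spread between tumors, not depth, set the precision.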

Additional observations from a re-analysis of the deposited data

Results flagged for a closer look

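Of 20 sets of values tested for a tumor far from the others of its group (7 genes and 3 ratios in each group), 2 were singled out, and chance singles out about 1 in 20. The CPM ratio of Tjp1 to Tjp3 was 6.22 in null 18, against 2.03 to 2.97 in the other null tumors. The CPM ratio of Cgn to Cgnl1 was 0.338 in WT 2, against 0.617 to 0.671 in the other WT tumors.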

How the results depend on the processing

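All 18 alternatives kept the direction of each of the 7 genes, and no adjusted p came under 0.05 in any of them (lowest 0.0986, for Tjp1 in DESeq2). Log2 fold changes over these alternatives ran from 0.71 to 1.08 for Tjp1, -0.51 to -0.13 for Tjp3, 0.48 to 0.72 for Cgn, 0.68 to 1.46 for Cgnl1, 0.24 to 0.66 for Ocln, 0.36 to 0.77 for Marveld2 and -0.61 to -0.21 for F11r. The unadjusted edgeR p stayed under 0.05 in 7 of 9 fits that each left out 1 tumor for Tjp1 and for Cgn, and in 4 of 9 for Cgnl1. The count of genes called over the whole table, 2 in the edgeR test, was 7 with no filter, 5 with the epithelial covariate, 633 in DESeq2, 1 with exon length offsets, 0 without both WT 3 and null 7, and from 0 to 1 with 1 tumor left out; the cause was not tested. No paired analysis was run because the labels name no pairing between null and WT tumors.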
